A study of Mus musculus with 3 samples.

Results

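The expression of 7 leukocyte adhesion genes was examined in kidney glomeruli of nondiabetic mice: Icam1, Vcam1, Sele, Selp, Selplg, Madcam1 and Alcam. The members are the probe sets that the platform annotation assigns to 1 of these gene symbols and to no other gene. This gave 15 probe sets for all 7 genes, out of 34958 single-gene probe sets for 18194 genes on the array. The samples were glomeruli of 3 male mice of the FVB/NJ strain, nondiabetic, 8 weeks old and on the same rodent diet, with RNA from 1 pool of glomeruli per mouse and 1 Affymetrix array per mouse (n = 3). The replicate numbers of the sample titles name them mouse 1, mouse 2 and mouse 3. The study set out to compare diabetic OVE26 mice with these FVB controls. OVE26 mice were not analysed here, so the data give baseline levels and the spread between control mice, with no contrast between groups.

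These genes encode surface proteins with which leukocytes stop on a vessel wall. The selectins, E-selectin (Sele) and P-selectin (Selp), are lectins of activated endothelium that let leukocytes roll, and P-selectin is also stored in platelets. Selplg encodes PSGL-1, the mucin on leukocytes that P-selectin binds. ICAM-1 (Icam1), VCAM-1 (Vcam1) and MAdCAM-1 (Madcam1) belong to the immunoglobulin superfamily and are bound by leukocyte integrins during firm adhesion. MAdCAM-1 is best known from the venules of the gut and its lymphoid tissue. Alcam encodes CD166, an immunoglobulin superfamily protein that binds CD6 on T cells and also binds itself. Cytokines such as TNF and interleukin-1 raise ICAM-1, VCAM-1 and E-selectin in endothelium through NF-kB, and glomerular ICAM-1 is widely studied in diabetic kidney disease.

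Icam1, Vcam1 and Alcam, 3 of the 7 genes, exceeded background in every mouse. Selp and Madcam1 were below background in all mice, and Sele and Selplg exceeded it in mouse 1 alone, a call that is lost with thresholds at the 99th percentile (3.35 in mouse 1). Over all genes on the array, 58.2% (10593 of 18194) were above background in all mice. Background was set on each array at the 95th percentile of 78 olfactory and vomeronasal receptor probe sets, which gave log2 thresholds of 2.59 (mouse 1), 2.92 (mouse 2) and 2.86 (mouse 3). Where a gene had several probe sets, the one with the highest mean stood for it. Levels are given in log2 units as GCRMA reports them, with the SD between the 3 mice as error. Levels of different probe sets are not set against each other, because each has its own probe response.

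**Figure D1:**
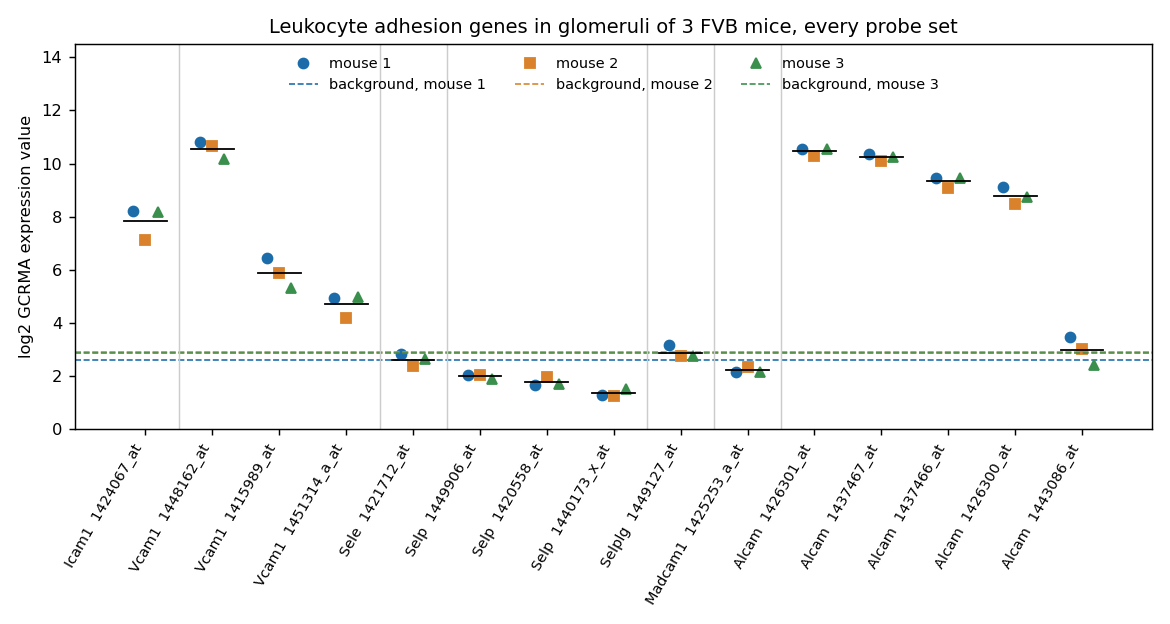
Log2 GCRMA expression value (vertical axis) of every probe set of the 7 genes (horizontal axis, gene and probe set). Points are single mice, black bars are means over 3 mice, and dashed lines are the background thresholds. All 8 probe sets above background in all mice belong to Icam1, Vcam1 and Alcam. The 3 Selp probe sets and the Madcam1 probe set lie below every threshold.

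The arrays had similar medians (2.82 to 2.85), and Pearson's r between pairs of mice was 0.984 to 0.988 across the 10593 tested genes, which are not independent replicates. Markers of the resident glomerular cells and of the tubule were both measured. All 6 podocyte, 8 endothelial and 6 mesangial markers that had a single-gene probe set exceeded background in every mouse. Their largest list median difference between a mouse and the others was -0.17, for podocyte markers in mouse 3. Of 5 parietal epithelium markers 4 had a single-gene probe set and 2 were above background in all mice. These 2 gave median differences of 0.04, 0.14 and -0.18 in mice 1, 2 and 3. Other markers differed far more. Leukocyte markers were highest in mouse 1 for 6 of 7 tested genes and lowest in mouse 3 for 6 of 7, with median differences of 1.57, -0.03 and -1.70 for mice 1, 2 and 3. Ptprc (CD45) was at 7.43, 6.58 and 5.13, and the lysozyme gene Lyz2 of myeloid cells at 9.47, 8.22 and 7.02. Tyrobp, S100a8, S100a9, Coro1a and Csf1r were also above background in all mice, and Csf1r alone among the 7 had a range under 2-fold. Cd3e (T cell receptor complex), Ncf1 and Cd68 were below background in all mice. Summed on the linear scale over the 11 leukocyte markers with a probe set, the signal was 1501, 833 and 451. The brightest markers, Lyz2 and Csf1r, weigh most in this sum, which also holds markers below background. Lyz2 was highest in mouse 1 and Csf1r in mouse 2. Of 8 proximal tubule markers 7 and of 7 loop, distal and collecting duct markers 5 were above background in all mice, and all of these had a 2-fold range. Slc34a1 of the proximal tubule was at 4.44, 5.35 and 7.41, Umod of the thick ascending limb at 12.47, 13.56 and 13.06, and Slc12a1 of the same segment at 10.09, 11.68 and 10.85. Proximal tubule markers gave median differences of -1.86, -0.81 and 2.58, and loop, distal and collecting duct markers -1.17, 1.21 and 0.00. RNA quality can be read from the control probe sets at both ends of the actin transcript, whose difference (3' end over 5' end) was 1.49, 1.81 and 2.05. The same difference for Gapdh was 0.48, 1.08 and 0.92. The Gapdh difference was largest in mouse 2, the mouse in which Icam1 and Alcam were lowest. The actin difference was largest in mouse 3, where the brightest Vcam1 probe set was lowest but Icam1 and Alcam were not. What part these differences have in the values of the adhesion genes was not tested. In bulk RNA, fewer cells of a type and less RNA per cell cannot be told apart.

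Among the counter-receptors for integrins, Icam1 was measured by 1 probe set, at 8.22, 7.14 and 8.17 in mice 1, 2 and 3 (7.84 ± 0.61). Mouse 2 stood below both other mice, by a difference of -1.06 from their mean, while mice 1 and 3 were 0.06 apart. The range was 2.13-fold, and Icam1 was the 1 gene among the 3 tested adhesion genes whose range reached 2-fold. Across all tested genes 5.94% (629 of 10593) had a 2-fold range, and 4.12% had an SD at least as large as that of Icam1. Among the 3531 genes in the middle tercile of mean level, where Icam1 lies, 3.46% had an SD at least as large. The tubule and leukocyte marker lists did not share the order of Icam1: leukocyte markers were lowest in mouse 3 and proximal tubule markers in mouse 1. Loop, distal and collecting duct markers were highest in mouse 2, where Icam1 was lowest, for 4 of 5 tested genes (median difference 1.21). Whether these markers bear on the Icam1 values was not tested. Among endothelial markers 5 of 8 had their lowest value in mouse 2, where the list median difference was -0.15. The same held for 4 of 6 mesangial markers (-0.07) and 1 of 6 podocyte markers, against 35.0% of all tested genes. Of 15 other adhesion and transmigration genes of the vessel wall, described below, 3 were lowest in mouse 2 and 11 in mouse 3.

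Vcam1, the ligand of the integrin VLA-4, which in kidney is also made outside the endothelium, was measured by 3 probe sets that were all above background. The brightest was at 10.82, 10.65 and 10.16 in mice 1, 2 and 3 (10.54 ± 0.34), a 1.58-fold range. A further probe set was at 6.43, 5.87 and 5.33, a 2.13-fold range. Both were highest in mouse 1 and lowest in mouse 3. The remaining probe set, whose name marks it as shared by several transcripts of the gene, was at 4.94, 4.19 and 4.98 and was lowest in mouse 2. The probe sets of Vcam1 thus disagreed on which mouse was lowest. Among the 3531 genes in the highest tercile of mean level, 3.91% had an SD at least as large as that of the brightest Vcam1 probe set, against 14.7% of all tested genes. Leukocyte markers had the same order of mice as the 2 brighter Vcam1 probe sets (median differences of 1.57, -0.03 and -1.70), and proximal tubule markers the opposite order. The other adhesion genes of the vessel wall, described below, also had the same order (0.17, -0.04 and -0.15). Podocyte markers were lowest in mouse 3 for 5 of 6 genes. Whether any of these lists bears on the Vcam1 values was not tested.

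Alcam was measured by 5 probe sets, 4 of them above background in all mice. The brightest was at 10.54, 10.27 and 10.56 in mice 1, 2 and 3 (10.46 ± 0.16), a 1.22-fold range. The other 3 were at 10.37, 10.10 and 10.24, at 9.47, 9.07 and 9.44, and at 9.11, 8.49 and 8.75. All 4 were lowest in mouse 2, with differences of -0.20 to -0.44 from the mean of the other mice. The fifth probe set was at 3.48, 3.03 and 2.40 and lay below background in mouse 3. Of all tested genes 48.7% had an SD at least as large as that of Alcam. Among the 3531 genes in the highest tercile of mean level, where Alcam lies, the share was 29.0%.

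Taking every probe set of the 7 genes that was above background in all mice, 6 of 8 were highest in mouse 1 and 6 of 8 were lowest in mouse 2. These 8 probe sets come from 3 genes and share 3 arrays, so they are not independent. Over all 10593 tested genes, 35.1% were highest in mouse 1 and 35.0% were lowest in mouse 2, and the median difference of mouse 2 from the mean of the other mice was -0.02.

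**Figure D2:**
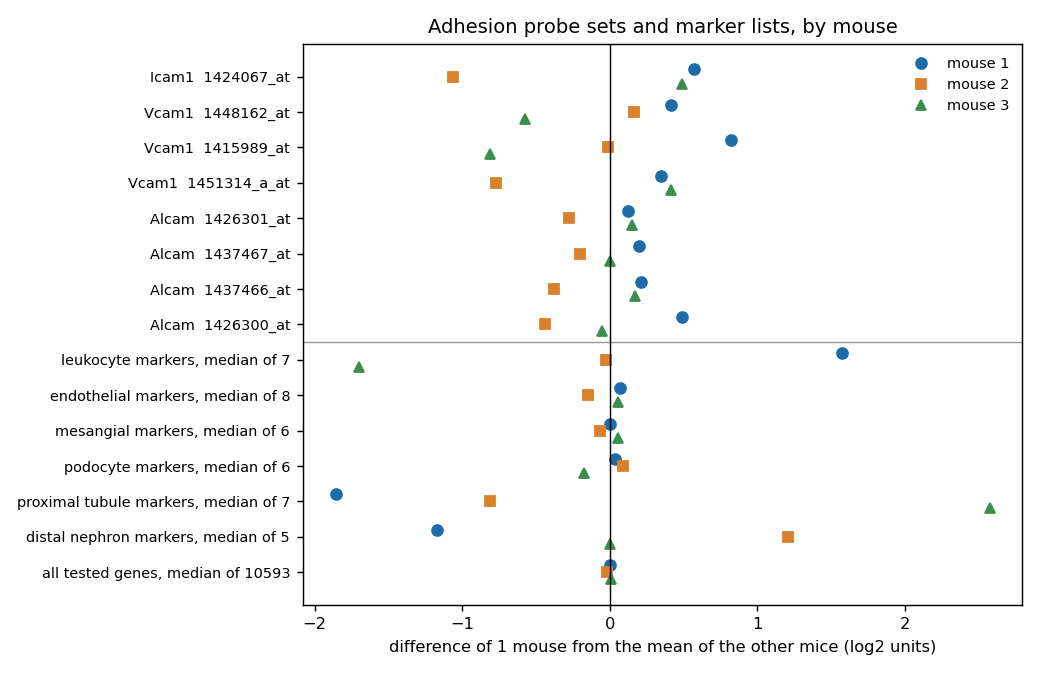
Difference of each mouse from the mean of the other mice (horizontal axis, log2 units) for the 8 adhesion probe sets above background in all mice (upper rows) and the median over each marker list and over all tested genes (lower rows). Icam1, 1 probe set of Vcam1 and all 4 of Alcam lie lowest in mouse 2. The 2 brighter Vcam1 probe sets, the leukocyte markers and the podocyte markers lie lowest in mouse 3.

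The selectins gave no signal above background that all mice shared. Sele was at 2.82, 2.38 and 2.66 in mice 1, 2 and 3, which was 0.23 above the threshold in mouse 1 and below it in mice 2 and 3. The value of mouse 3 would also pass the threshold of mouse 1. The brightest of the 3 Selp probe sets was at 2.04, 2.06 and 1.91, below every threshold. Of the platelet markers, which bear on Selp because platelets store its protein, Pf4 was at 3.35, 2.22 and 2.16 and Itga2b at 2.32, 2.33 and 2.31, and 1 of 6 was above background in all mice. Another 4, Pf4 among them, exceeded the threshold in mouse 1 alone, and 1 was below background in all mice. Mouse 1 has the lowest threshold, and not all of these 4 genes were highest in mouse 1. Selplg, the leukocyte ligand of P-selectin, was at 3.15, 2.75 and 2.75 and exceeded the threshold of mouse 1, which is the lowest of the 3 thresholds and which the values of mice 2 and 3 would also pass. The values of mice 2 and 3 were identical, as were those of 2.18% of all probe sets in this pair of mice, and such a tie lowers the SD. Madcam1 was at 2.17, 2.34 and 2.15, below every threshold. A value under the threshold bounds the signal of that probe set and does not show that the transcript was absent.

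Spread between the mice was tested by setting the variance of each gene against the distribution fitted across all 10593 tested genes with limma. No gene passed at an adjusted p of 0.05 (0 of 10593, 0%), and the lowest adjusted p of any gene was 0.470. At an unadjusted p of 0.05 there were 490 genes (4.63%), Icam1 among them. The adjusted p from limma was 0.947 for Icam1, 0.972 for Vcam1 and 0.972 for Alcam. The SD fitted for a gene of the same level was 0.170 for Icam1, 0.116 for Vcam1 and 0.117 for Alcam, against measured SDs of 0.612, 0.342 and 0.161. With 1 array for each of 3 mice this test has little power: on simulated data it found almost no gene unless its spread was raised far beyond the sizes measured here. The lack of calls, here and in the gene lists that follow, therefore does not show that the mice were alike.

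**Figure D3:**
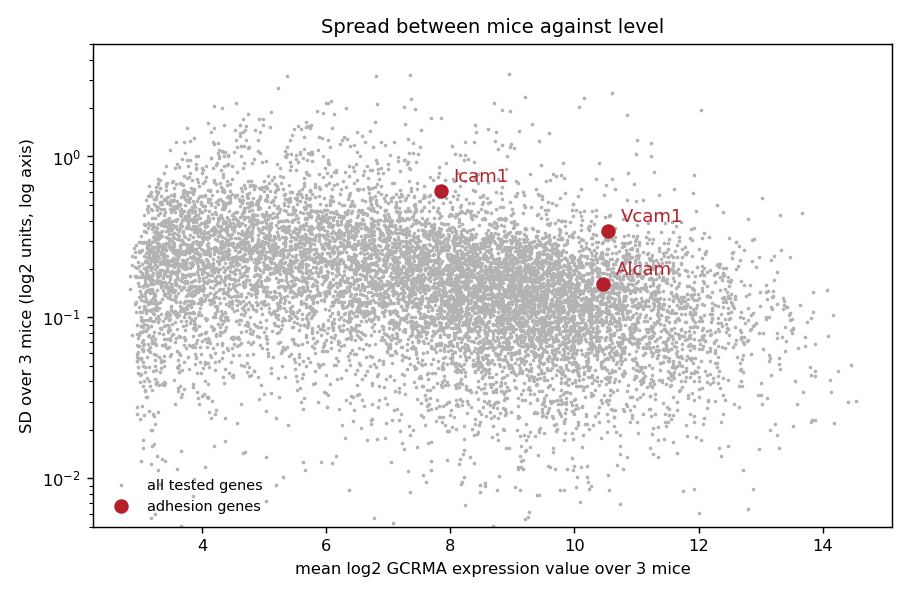
SD over 3 mice (vertical axis, log2 units, log scale) against mean log2 GCRMA expression value (horizontal axis) for all tested genes (grey) and the 3 adhesion genes above background in all mice (red). Icam1 (SD 0.61) and Vcam1 (0.34) lie in the upper part of the cloud at their level and Alcam (0.16) inside it. 33 genes with an SD under 0.005 lie below the lower edge.

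The partners of these proteins on leukocytes were measured in part. Of 11 listed genes 10 had a single-gene probe set and 6 were above background in all mice. Of these 6, 2 had a 2-fold range and none passed the test. Their median SD was 0.361, against 0.157 over all tested genes. The lists here and below were not matched for level, and the fitted SD differed with level (0.170 for Icam1, 0.117 for Alcam). Itgal, the alpha chain of the ICAM-1 receptor LFA-1, was at 4.79, 3.68 and 3.98 in mice 1, 2 and 3. Itgb2, the beta chain that LFA-1 shares with Mac-1, was at 5.39, 4.23 and 3.62, and Itgam, the alpha chain of Mac-1, was below background in all mice (1.78, 1.75 and 1.68). Of the 6, 5 were highest in mouse 1 and 5 were lowest in mouse 3, against 35.1% and 31.7% of all tested genes. These are the mice in which leukocyte markers were highest and lowest. Both counts include Itgb1, whose range was 1.10-fold. The other adhesion genes of the vessel wall, described next, went the same way (10 and 11 of 15). Itga4, a chain of the VCAM-1 receptor VLA-4, was at 9.02, 9.39 and 8.94, and its partner Itgb1, which many cell types make, at 11.50, 11.40 and 11.37. Cd6, the T cell partner of Alcam, was at 2.83, 2.06 and 2.17 and exceeded the threshold in mouse 1. Itga4, Itgb1 and Cd6 were singled out after their values were seen.

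The other adhesion and transmigration genes of the vessel wall had a spread near that of all tested genes, which were not matched for level. Of 16 listed genes 15 were above background in all mice, none had a 2-fold range or passed the test, and the median SD was 0.164, against 0.157 over all tested genes. Icam2, a further ligand of LFA-1 on resting endothelium, was at 11.84, 11.72 and 11.52 in mice 1, 2 and 3. The junction protein gene Pecam1 was at 9.57, 9.20 and 9.04. Of the 15, 10 were highest in mouse 1 and 11 were lowest in mouse 3, against 35.1% and 31.7% of all tested genes. Jam2 and Jam3, which encode junctional adhesion molecules, were lowest in mouse 2 as Icam1 was (7.94, 7.51 and 7.97, and 9.17, 8.62 and 8.93). Aoc3, which encodes the vascular adhesion protein VAP-1, was lowest in mouse 1 (7.92, 8.82 and 8.83) and had the largest SD of the 15 (0.52). Vwf, the von Willebrand factor gene, whose protein shares storage granules with P-selectin in endothelium, was below background in all mice (2.32, 2.06 and 1.91). These 4 genes were singled out after their values were seen.

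Enzymes that build selectin ligands, and proteins that anchor or shed adhesion molecules, had list median SDs below the 0.157 of all tested genes. The lists were not matched for level, so these medians do not show a spread below that of genes as bright. Of 10 ligand synthesis genes 7 were above background, none had a 2-fold range or passed the test, and the median SD was 0.105. The largest SD among these 7 was 0.346. Fut4 (2.33, 2.12 and 2.05) and Fut7 (2.02, 1.82 and 1.77), the fucosyltransferase genes of leukocyte selectin ligands, were below background in all mice. All 8 anchor and shedding genes were above background, none had a 2-fold range or passed the test, and the median SD was 0.0683. The linker gene Ezr was at 11.78, 11.71 and 11.67 and Msn at 11.93, 11.99 and 11.90.

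Of 14 listed genes of cytokine signalling, NF-kB and IRF1, 12 had a single-gene probe set and 10 were above background in all mice. Of the 10, 2 had a 2-fold range, none passed the test, and the median SD was 0.243. Irf1, a transcription factor gene that interferon-gamma induces, was at 8.62, 8.01 and 10.23 in mice 1, 2 and 3. Relb, an NF-kB subunit gene, was at 6.26, 6.54 and 5.51. Irf1 was lowest in mouse 2, as was Icam1, but was highest in mouse 3, whereas Icam1 was at about the same value in mice 1 and 3. The cytokine gene Tnf was below background in all mice (1.98, 1.89 and 1.98), and Il1b was at 3.04, 2.54 and 2.94. The NF-kB inhibitor gene Nfkbia, itself an NF-kB target and singled out after its values were seen, was at 12.77, 12.61 and 12.69. Proximal tubule markers were highest in mouse 3, as Irf1 was (median difference 2.58).

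**Figure D4:**
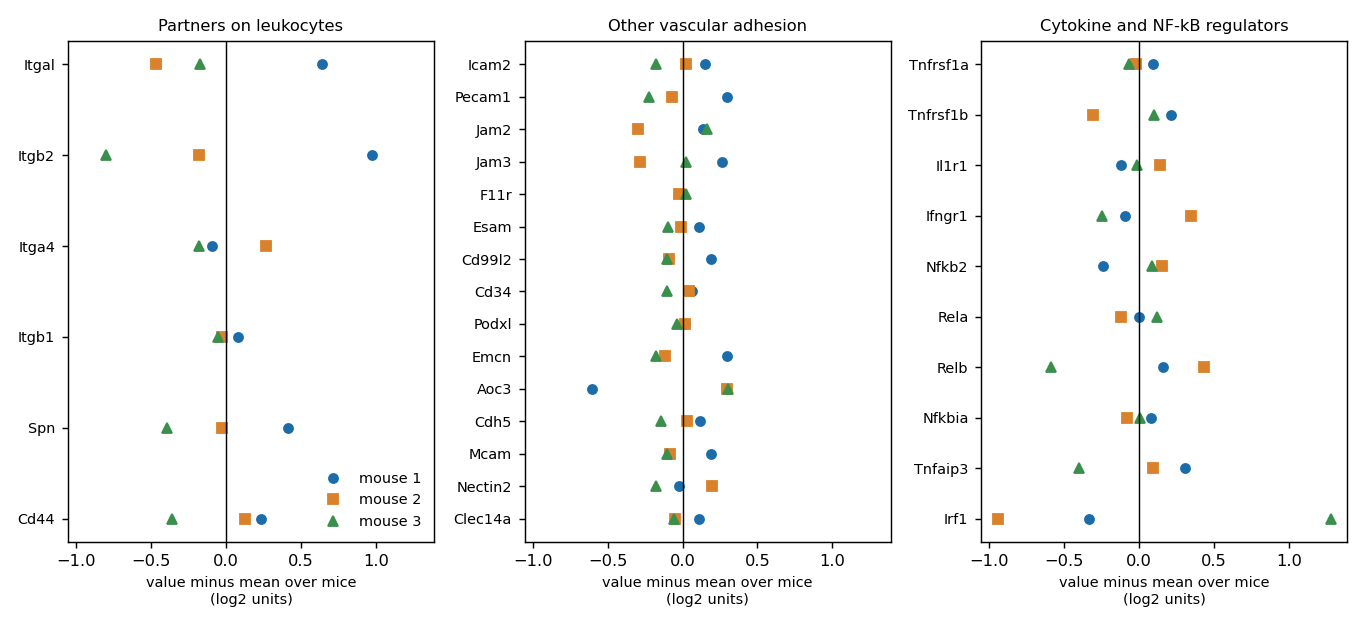
Value of each mouse minus the mean over the 3 mice (horizontal axis, log2 units) for the genes above background in all mice in 3 related lists (vertical axis). Itgb2 is highest in mouse 1 and lowest in mouse 3, the vascular adhesion genes lie close to their mean apart from Aoc3, which is lowest in mouse 1, and Irf1 is highest in mouse 3.

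The 5 genes whose centred profile over the 3 mice was nearest to that of Icam1 were 2310030G06Rik, Myrip, Zgpat, Hrct1 and Tcf23, with root mean square differences of 0.026 to 0.051 on the log2 scale. Myrip, for example, was at 7.81, 6.74 and 7.84 in mice 1, 2 and 3. They were picked as the nearest of all tested genes over only 3 mice, so close matches were bound to be found. None of the 5 belongs to the lists above, which hold few of the tested genes.

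The start regions of the adhesion genes were searched for the letters that NF-kB and the interferon-activated STAT factors are known to prefer. RefSeq (build GRCm38.p6) gave a promoter window for 5 of the 7 genes, and the 250 bases before the annotated start are used here. Both strands were searched for an NF-kB motif of the letters GGGNNNNNCC, for its palindromic form GGAANTTCC, for a STAT motif TTCNNNGAA and for the TATA box TATAAA. The palindromic form was added after the sequences were seen. Icam1 is shown as the adhesion gene with a 2-fold range, Sele and Madcam1 as genes at or below background, and Alcam as a bright gene with a smaller range. Capitals mark every motif match, and overlapping matches run together.
Icam1, chr9:21015690-21015939, plus strand: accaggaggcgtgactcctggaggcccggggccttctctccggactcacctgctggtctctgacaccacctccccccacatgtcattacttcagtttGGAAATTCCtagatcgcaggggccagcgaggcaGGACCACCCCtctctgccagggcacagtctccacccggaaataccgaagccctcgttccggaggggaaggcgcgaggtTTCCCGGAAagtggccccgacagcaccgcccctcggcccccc
Sele, chr1:164047984-164048233, plus strand: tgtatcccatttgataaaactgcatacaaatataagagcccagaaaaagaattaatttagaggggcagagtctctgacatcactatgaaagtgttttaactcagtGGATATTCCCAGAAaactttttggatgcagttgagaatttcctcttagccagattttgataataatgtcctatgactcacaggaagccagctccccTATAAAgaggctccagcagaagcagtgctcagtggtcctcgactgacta
Madcam1, chr10:79664309-79664558, plus strand: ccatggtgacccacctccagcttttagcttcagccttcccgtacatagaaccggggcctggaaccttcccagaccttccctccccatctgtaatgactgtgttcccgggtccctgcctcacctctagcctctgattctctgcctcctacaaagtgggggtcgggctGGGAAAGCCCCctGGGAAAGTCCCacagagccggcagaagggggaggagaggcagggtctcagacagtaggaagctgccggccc
Alcam, chr16:52453082-52453331, minus strand: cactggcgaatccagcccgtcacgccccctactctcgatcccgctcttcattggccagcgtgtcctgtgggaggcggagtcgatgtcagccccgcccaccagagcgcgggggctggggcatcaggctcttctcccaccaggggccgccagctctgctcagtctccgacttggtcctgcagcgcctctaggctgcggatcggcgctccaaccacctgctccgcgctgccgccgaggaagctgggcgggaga

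In the Icam1 window the palindromic form lay at -153 to -145, counting -1 as the last base before the start, the NF-kB motif at -120 to -111 on the minus strand and the STAT motif at -42 to -34. Sele had overlapping NF-kB and STAT matches between -145 and -132 and a TATA box at -49 to -44. Madcam1 had 4 overlapping NF-kB matches in 2 places, between -84 and -74 and between -71 and -61. Selp had 1 NF-kB match at -15 to -6, and Alcam had no match. The NF-kB motif is common by itself: among 32851 promoter windows of this length 45.8% held it. The STAT motif was in 7.02%, the TATA box in 12.4% and the palindromic form in 0.81%. Because the palindromic form was added after the sequences were seen, its low share cannot be read as a result. Measured genes (Icam1) and genes below background in all mice (Selp, Madcam1) both had NF-kB matches, and a match in letters is a description of the window, not of binding.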

How the data were processed

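Expression was measured in glomeruli of 3 FVB mice with 1 Affymetrix array each. The deposited table holds log2 expression values which the authors made with GCRMA, per the submitters' processing notes; its version, and which arrays were normalised together, are not given in the sources used here. That scale is an inference from the range of the values, 0.67 to 14.76. Precision is limited by the 3 arrays and by how far a signal lies above background. No further normalisation was applied, and 0 columns of per-sample values were left unused.

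Of 45101 probe sets, 34958 had 1 gene symbol in the platform annotation, 932 had several (not used) and 64 were controls, and 34754 matched the RefSeq gene table (GRCm38.p6). Genes above background on all arrays were tested for excess variance with limma 3.58.1 in R 4.3.3 (robust F fit with a trend on level, one-sided, Benjamini-Hochberg over all 10593 genes at 0.05), after the script was tested on simulated data. A 2-fold range is a log2 range of at least 1. Because there is 1 group, no comparison between groups was made.

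The members and lists were chosen with earlier results of these data known. Outside the members, the text names the first 2 genes of each list, genes with a 2-fold range, and the 5 genes nearest in profile to a member with a 2-fold range. Of the marker lists only the genes that bear on the members are named and the rest stand as list medians and counts. Itga4, Itgb1, Cd6, Jam2, Jam3, Aoc3, Vwf, Nfkbia, Csf1r, Cd3e, Ncf1 and Cd68 fall outside that rule and were chosen after their values were seen. The alternatives were no filter, a 99th percentile threshold, the mean over probe sets, quantile normalisation, array centring, no trend, a non-robust fit and leaving out each mouse; each probe set on its own was added after seeing the data.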

Additional observations from a re-analysis of the deposited data

How the results depend on the processing

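No gene passed the variance test under any of the 11 alternatives, and the adjusted p from limma stayed at 0.849 or above for Icam1, Vcam1 and Alcam in all of them. The same 3 of 7 adhesion genes were above background on all arrays used, under the 10 alternatives that work by gene. No filter, no trend, a non-robust fit and array centring could not change this call, since values and thresholds stay or shift together. Quantile normalisation keeps the order of probe sets on an array, so it could hardly change the call either. At the 99th percentile threshold Sele and Selplg were above background on 0 arrays, against 1. The count of genes with a 2-fold range was 431 to 766 under the alternatives with 3 mice by gene, against 629, and 1085 with each probe set on its own, where 18434 probe sets were tested. Leaving out a mouse gave counts of 319 to 371, since a range over fewer arrays is smaller. Without mouse 2 the range of Icam1 was 0.06 and that of Alcam 0.02, and without mouse 3 that of Vcam1 was 0.17, so each of these ranges rests on the mouse left out. In the settings that kept mouse 2, the range of Icam1 was 1.03 or above. Icam1 has 1 probe set, so changes of filter, threshold, probe set averaging, trend or fit leave its range as it is. Quantile normalisation gave 1.07 and array centring 1.04. Without mouse 1 or mouse 3 the range is the difference between the mice that remain. With the mean over probe sets, Vcam1 was at 7.04, Alcam at 8.35 and Selp at 1.71, because dimmer probe sets enter. No paired analysis was possible because there is 1 group. Dim probe sets near the background threshold give no order between mice.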
